A study of Mus musculus with 12 samples.

Results

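The Wnt ligands, their Frizzled receptors, the co-receptors Lrp5 and Lrp6, the secreted antagonists of the Sfrp and Dkk families with Wif1, and the genes Lef1 and Axin2 were followed after knockdown of Ino80 in mouse embryonic stem cells (ESCs) of the line J1. Ino80 encodes the catalytic subunit of INO80, a nucleosome remodelling complex. Members were the genes whose symbol on the array began with Wnt, Fzd, Sfrp or Dkk and a number, and those 5 further genes by name: 42 of the 27670 genes on the array, read by 56 probes. They were 19 Wnt ligands, 10 Frizzled receptors, 9 antagonists and the 4 genes Lrp5, Lrp6, Lef1 and Axin2. A total of 37 members (47 probes) cleared background by the scanner software's mark on both arrays of 1 or more groups and were tested. The others, Dkk2, Dkk4, Wif1, Wnt2b and Wnt16, were not.

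Cells were infected with lentivirus carrying a non-targeting short hairpin (shNT) or 1 against Ino80 (shIno80), and RNA was taken after 2, 4 or 6 days, with 2 one-colour Agilent arrays for each of the 6 groups (12 arrays). All cells, the controls included, were of 1 line, carried a lentivirus and were cultured in M15 medium during infection. The labels' series text calls the arrays of a group biological replicates, without saying how the cultures were made, so p-values measure only how these samples vary, and some of that variation may be technical. The labels name a single hairpin against Ino80, so what it does other than lower Ino80 cannot be told apart from the knockdown.

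The deposited value table and the attached scanner files placed 6 of the 12 arrays under different samples, exchanged between shNT and shIno80 on each of the 3 slides. Samples are those of the value table here. With the scanner files' placement, limma called 0 members on each day, and 1, 0 and 0 members reached an unadjusted p below 0.05 at days 2, 4 and 6. Ino80 itself stood at log2 levels of 2.72 and 2.67 in shNT versus 0.56 and 0.85 in shIno80 at day 2, at 2.26 and 2.16 versus −0.29 and 0.12 at day 4, and at 1.89 and 2.05 versus −0.23 and −0.01 at day 6. The placement was chosen with these signals known, so they are no independent check of it. A log2 level here is log2 of a probe's processed intensity minus that of the 75th percentile of its array, so levels of different probes are not compared. The 75th percentile lay between 1162 and 1643 intensity units, and the share of probes marked well above background ran from 61.9% to 69.2%. Each slide held 1 day, and the position on the slide went with the hairpin, so position and hairpin cannot be told apart.

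Wnt proteins are secreted, lipid-modified signals. They bind Frizzled receptors together with Lrp5 or Lrp6, which halts the breakdown of beta-catenin and lets it act with TCF/LEF factors such as Lef1 on target genes. Axin2, a scaffold of the breakdown complex, is a widely used target and feedback inhibitor of this branch. Sfrp proteins and Wif1 bind Wnts outside the cell, and Dkk proteins of the Dkk1 type block Lrp5 and Lrp6. Other Wnts, Wnt5a among them, act mainly through branches without beta-catenin. In mouse ESCs, beta-catenin signalling favours self-renewal.

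Most Wnt ligand genes that passed the test were higher in shIno80. Of the 6 tested antagonists, 1, 2 and 3 were lower at days 2, 4 and 6, beside 6.21%, 21.3% and 29.5% of all genes. In these antagonists 1 higher call was made, at day 6, for Dkk1, which was lower at day 4. Of the 17 tested Wnt genes, limma called 1 at day 2, which was higher, 10 higher and 1 lower at day 4, and 9 higher and 1 lower at day 6. The median difference of these genes, shIno80 minus shNT on the log2 scale, was 0.04, 1.36 and 1.10 on the 3 days, beside 0.02, −0.05 and −0.14 over all genes. Over all 37 tested members, 5 passed at day 2, where 12.5% of all 19184 genes did (3 higher beside 6.29%, and 2 lower beside 6.21%). At day 4, 24 passed beside 42.3% of all genes (18 higher beside 20.9%, and 6 lower beside 21.3%). At day 6, 22 passed beside 50.6% (16 higher beside 21%, and 6 lower beside 29.5%). The day 2 share is thus near that of all genes, the members' share called lower is below it on each day, and the higher calls at days 4 and 6 make up the excess. Those higher calls include Wnt7a, Wnt10b and Wnt2, which were tested only because they cleared background in shIno80 groups.

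**Figure D1:**
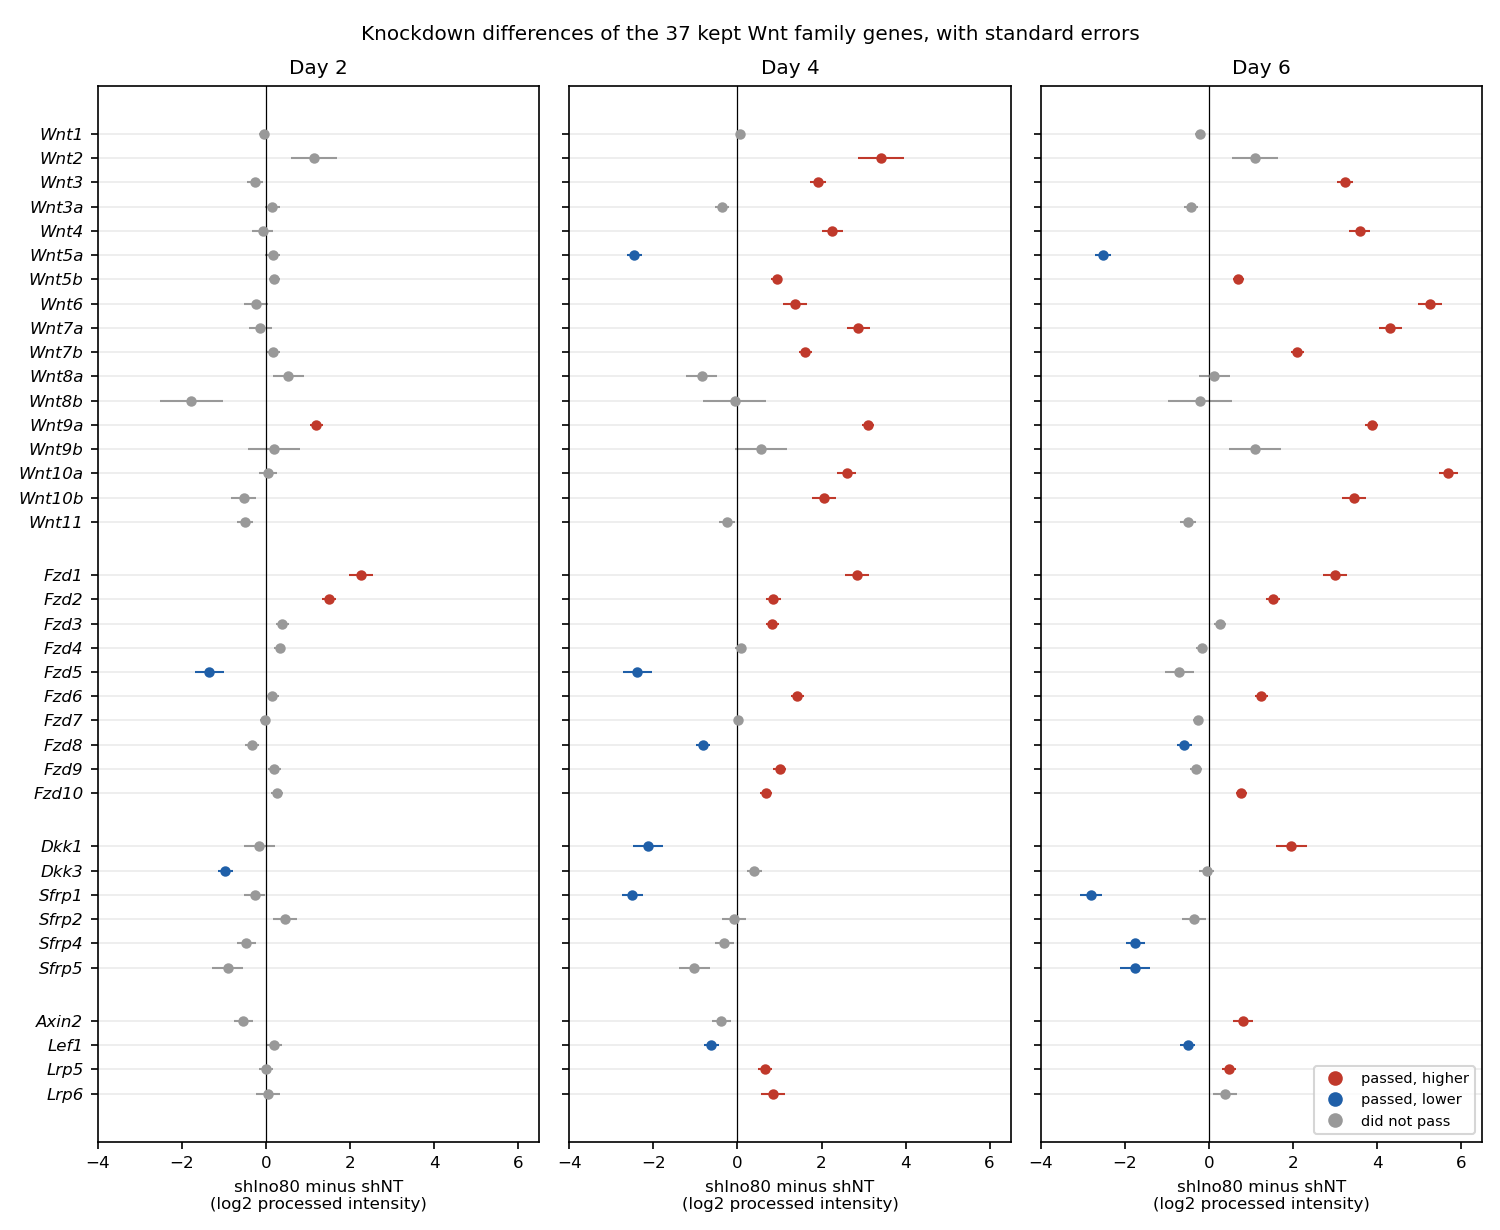
Differences between shIno80 and shNT on the log2 scale for the 37 tested members at days 2, 4 and 6, with the standard error of the limma fit as bars and 2 arrays per group. Most ligands that passed lie to the right at days 4 and 6, up to 5.70 for Wnt10a, with Wnt5a at −2.52 as the exception.

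Markers of cell types moved over the same days. Their counts stand beside 6.29% of all genes called higher and 6.21% lower at day 2. Those shares were 20.9% and 21.3% at day 4, and 21% and 29.5% at day 6. A summed level adds the linear intensities of different probes, so the brightest probes weigh most in it. All 6 ESC markers were lower at days 4 and 6 and 1 of them at day 2, and their summed level, in units of the array's 75th percentile, was 261 to 317 in shNT on all days and 204 to 207, 61.6 to 69.8 and 68.7 to 82.3 in shIno80 at days 2, 4 and 6. Of 10 tested trophoblast markers, 2 were higher and 1 lower at day 2, 9 higher at day 4, and 9 higher and 1 lower (Tfap2c) at day 6. Their sums at days 2, 4 and 6 were 7.88 to 9.73, 13.2 to 14.1 and 25.9 to 29.4 in shNT, so the controls also had higher sums on later days. In shIno80 they were 9.45 to 12.3, 151 to 163 and 511 to 533. Of 11 tested fibroblast markers, 1 was lower at day 2, and 6 were higher and 1 lower at both later days, with sums of 1.53 to 2.20 in shNT and 1.41 to 1.53, 4.71 to 5.17 and 5.57 to 6.22 in shIno80. Of 5 tested primitive streak and mesoderm markers, 1 was lower at day 2, 1 was higher and 2 lower at day 4, and 1 higher and 3 lower at day 6. Their sums over all days were 0.52 to 0.64 in shNT and 0.34 to 0.41 in shIno80. Of 6 primitive endoderm markers, 2 were higher at day 2, 1 was higher and 1 lower at day 4 and 1 higher at day 6. The sums of these 6 overlapped between hairpins at days 2 and 4. At day 6 they were 0.80 to 0.96 in shNT and 1.62 to 1.72 in shIno80, while the median log2 difference of the 6 markers was −0.09. Elf5, Postn, Mixl1 and Msgn1 did not reach the detection rule in any group. The part of these markers' cell types in the results on the Wnt genes was not tested, and in RNA from whole cultures more cells of a type and more RNA per cell cannot be told apart.

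The largest rises were those of Wnt10a and Wnt6, which lie next to each other on chromosome 1. Wnt10a, a ligand of skin appendages and teeth, had log2 levels of −1.92 and −1.56 in shNT versus −1.91 and −1.49 in shIno80 at day 2. At day 4 these were −2.47 and −1.90 versus 0.33 and 0.49, and at day 6 −3.41 and −3.59 versus 2.28 and 2.12. The groups overlapped at day 2 and stood apart on both later days. The difference was 2.60 ± 0.22 (the SE of the fit, as in all such values, with n = 2 arrays a group) at day 4 and 5.70 ± 0.22, or 51.9-fold, at day 6 (limma adjusted p = 5.64e-05 and 1.5e-06). Wnt6, whose level was 0.44 and 1.16 in shNT versus 0.26 and 0.87 in shIno80 at day 2, stood at −0.54 and −0.07 versus 0.98 and 1.13 at day 4. At day 6 it stood at −1.95 and −2.21 versus 3.23 and 3.16. Its difference was 1.36 ± 0.28 at day 4 and 5.27 ± 0.28, or 38.6-fold, at day 6 (limma adjusted p = 0.00504 and 4.7e-06), and its second probe gave 1.25 and 4.74. In the control arrays both genes had lower levels at day 6: from day 2 to day 6 the mean shNT level moved by −1.76 for Wnt10a and by −2.88 for Wnt6, while the mean shIno80 level moved by 3.89 and 2.63. Between days of 1 hairpin, day and slide cannot be told apart, so these moves carry no test.

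Wnt9a was the only ligand called on all 3 days. Its log2 levels were −3.63 and −3.66 in shNT versus −2.52 and −2.37 in shIno80 at day 2, −3.03 and −3.12 versus −0.07 and 0.14 at day 4, and −2.95 and −3.39 versus 0.77 and 0.63 at day 6. Every shIno80 array was above every shNT array of its day. The differences were 1.198, 3.11 and 3.87 (each ± 0.15), or 2.29-, 8.61- and 14.6-fold (limma adjusted p = 0.00309, 6.48e-06 and 1.51e-06). Its dimmer second probe gave −0.00, 0.66 and 1.55 and passed at day 6 alone. With normexp the day 2 difference was −0.23, and with the mean of both probes the day 2 difference was 0.60 and did not pass, while those of days 4 and 6 were 1.89 and 2.71 and passed.

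Wnt4, Wnt3 and Wnt7b showed no called difference at day 2 and rose on both later days. Wnt4, a ligand of kidney and female gonad development, had log2 levels of −5.34 and −4.59 in shNT versus −5.16 and −4.93 in shIno80 at day 2, −3.56 and −3.62 versus −1.42 and −1.24 at day 4, and −2.74 and −3.26 versus 0.61 and 0.56 at day 6. That is a difference of 2.26 ± 0.25 at day 4 and 3.58 ± 0.25 at day 6 (limma adjusted p = 0.000196 and 1.48e-05). Wnt3, a ligand that the embryo needs to form the primitive streak, went from −3.94 and −3.75 in shNT versus −4.35 and −3.87 in shIno80 at day 2 to −3.02 and −2.90 versus −1.19 and −0.90 at day 4. At day 6 it stood at −2.87 and −3.22 versus 0.22 and 0.15, a 9.39-fold difference (3.23 ± 0.19, limma adjusted p = 7.32e-06), and its second probe gave 3.27. Wnt7b, a ligand of placental and lung development, stood at −1.77 and −1.496 in shNT versus −1.60 and −1.32 in shIno80 at day 2. It then stood at −1.19 and −1.29 versus 0.25 and 0.51 at day 4, and at −0.69 and −0.82 versus 1.26 and 1.45 at day 6. Its differences at those days were 1.62 and 2.11 (each ± 0.15; limma adjusted p = 9.06e-05 and 1.76e-05). For all 3 genes, both hairpins overlapped at day 2 and did not afterwards.

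Wnt7a, Wnt10b and Wnt2 were not well above background on any day 2 array, and appeared in shIno80. They met the detection rule only in shIno80 groups, where they were high, so their calls are no independent support for a rise. For such genes a fold change is given as a lower bound, which holds within this processing only. It sets the mean of the group with signal against a floor for the other, taken on each array as the gene's own value or the lowest value of any probe well above background, whichever was higher, and averaged. Wnt7a, a ligand of limb patterning, stood at −6.00 and −6.21 in shNT versus −3.33 and −3.12 in shIno80 at day 4, and at −5.50 and −5.70 versus −1.36 and −1.201 at day 6. It was well above background on no shNT array. The gene was at least 6.89-fold higher at day 4 and 19.96-fold higher at day 6 (limma adjusted p = 8.97e-05 and 9.77e-06). At day 6 its own shNT values lay above the floor, so that fold is the point value and no bound. Wnt10b stood at −7.86 and −7.18 versus −5.51 and −5.41 at day 4 and at −7.89 and −7.88 versus −4.55 and −4.31 at day 6, higher by at least 1.55-fold and by at least 2.80-fold (limma adjusted p = 0.000699 and 3.41e-05). Wnt2, a ligand of placental vessel and lung development, stood at −6.34 and −7.66 in shNT versus −3.62 and −3.56 in shIno80 at day 4, at least 5.67-fold higher (limma adjusted p = 0.00134). At day 6 it stood at −5.33 and −6.28 versus −4.56 and −4.86 and did not pass (1.10 ± 0.55, limma adjusted p = 0.13). On the days these 3 genes passed, their groups did not overlap. In the authors' value table, which carries no background subtraction, these differences were smaller and still passed: 1.18 and 2.74 for Wnt7a and 0.33 and 0.93 for Wnt10b at days 4 and 6, and 1.07 for Wnt2 at day 4. Wnt2 at day 6 passed in that table, at 0.44 (limma adjusted p = 0.00737). With normexp none of these differences passed. Wnt7a was then at 0.37 and 2.18 and Wnt10b at −0.17 and 0.80 at days 4 and 6. Wnt2 was at 0.29 and 0.54 on those days.

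**Figure D2:**
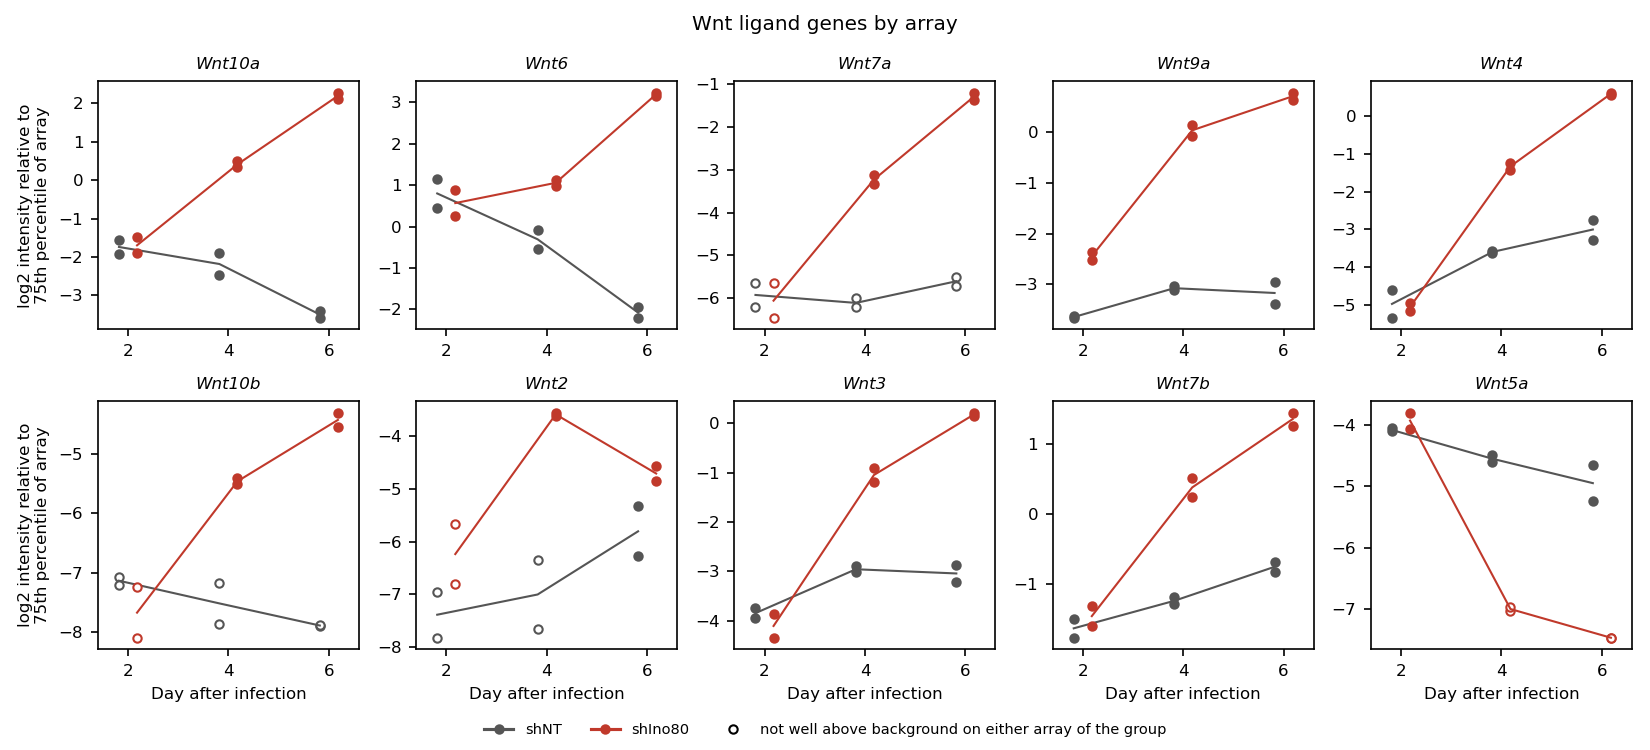
Log2 levels of 10 Wnt ligand genes on each array against the day after infection, in grey for shNT and red for shIno80, with lines through the group means and open circles where neither array of a group was well above background. In 9 genes shIno80 lies above shNT at day 4, and in Wnt5a below.

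Wnt5a was the 1 ligand called lower. Its log2 levels were −4.10 and −4.06 in shNT versus −4.06 and −3.80 in shIno80 at day 2, −4.49 and −4.61 versus −7.03 and −6.98 at day 4, and −5.25 and −4.65 versus −7.47 and −7.47 at day 6. The groups met at day 2 and stood apart later. The gene was not well above background on the shIno80 arrays of days 4 and 6, and was at least 2.81-fold and at least 1.93-fold lower there (limma adjusted p = 3e-05 and 1.72e-05). In the authors' value table these differences were −0.57 and −0.46 and passed. With normexp they were −0.60 and −0.08 and did not pass. Wnt5b, its nearest relative, was higher by 0.94 and 0.70 (each ± 0.13) at days 4 and 6 by its brightest probe (limma adjusted p = 0.000694 and 0.00252), but its second probe gave 0.25 and 0.45 and did not pass. The remaining 6 tested ligands passed on no day: Wnt1, Wnt3a, Wnt8a, Wnt8b, Wnt9b and Wnt11. Of these, Wnt3a, the ligand most often added to ESC cultures, moved by 0.15, −0.37 and −0.43 (each ± 0.17; limma adjusted p = 0.66, 0.125 and 0.0679). The last 2 of these differences passed when either shNT array of day 2 was left out of the fit (limma adjusted p = 0.0362 and 0.0164), which leaves the values as they are. Wnt11 at day 6 passed without shNT replicate 2 of that day (−0.66), Wnt8a at day 4 without either shNT array of day 2 (−0.86), and the dim Wnt8b at day 2 without shNT replicate 1 of that day (−2.91).

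The probes of Wnt4 and Wnt5a, which moved in opposite directions, are printed here to show how far the sequences read for 2 related ligands differ. In the array's own coordinates (mouse build mm7) they cover 569 and 3871 bases, more than the 60 bases of a probe. The Wnt4 probe lies at chr4:136674216-136674784 and that of Wnt5a at chr14:25948244-25952114, both on the plus strand. Capitals mark the 25 bases of 51 that are identical in their best ungapped alignment, and the longest run they share is 7 bases.
Wnt4: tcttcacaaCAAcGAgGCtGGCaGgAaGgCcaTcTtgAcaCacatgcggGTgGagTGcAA
Wnt5a: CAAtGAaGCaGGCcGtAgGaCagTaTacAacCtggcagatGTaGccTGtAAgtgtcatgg
Over the 666 pairs of reported probes of different members, the longest shared run was 10 bases and the most identical bases in an ungapped alignment were 28.

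In a RefSeq gene table (GRCm38.p6), 4 pairs of tested Wnt genes are neighbours with no other protein-coding gene between them, and in 3 of the 4 pairs the members differed in whether they passed. Wnt6 and Wnt10a, whose reported probes lie 19.1 kb apart in the array's coordinates, both rose. Wnt9a rose on all 3 days, while its neighbour Wnt3a (85.0 kb away) passed on none. Wnt3 rose by 1.91 and 3.23 at days 4 and 6, while Wnt9b (88.5 kb away), which was at 0.55 ± 0.62 and 1.09 ± 0.62, did not pass with all arrays. Wnt9b was well above background on no shNT array of those days. The 1.09 of Wnt9b passed when either shNT array of day 2 was left out of the fit. Wnt10b rose, while Wnt1 (20.7 kb away), a dim gene, was at 0.06 and −0.22 (each ± 0.11) and did not pass. Wnt10b met the detection rule only in shIno80 groups, so its rise, and with it this pair, is no independent support. Differences between neighbours were not tested.

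**Figure D3:**
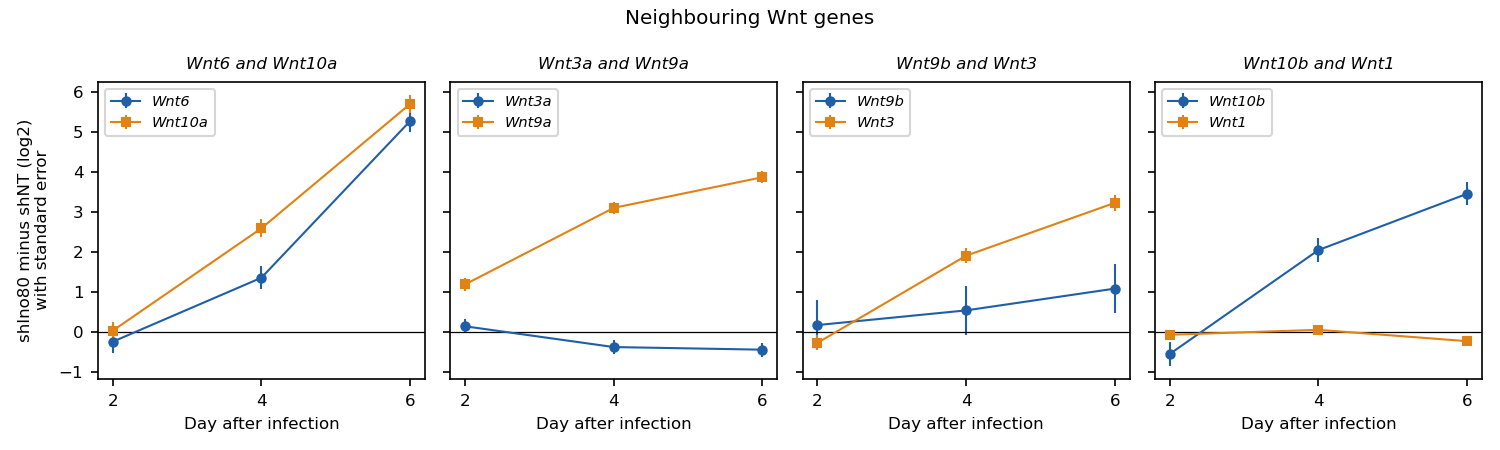
Differences between shIno80 and shNT (log2, with standard errors) for the 4 pairs of neighbouring Wnt genes against the day after infection. Wnt6 and Wnt10a climb together to 5.27 and 5.70 at day 6. In each of the other pairs 1 gene passed on at least 2 days and its neighbour on none with all arrays in the fit. Wnt10b met the detection rule only in shIno80 groups.

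Among the 10 Frizzled receptor genes, 2 were higher and 1 lower at day 2 (beside 6.29% and 6.21% of all genes). At day 4, 6 were higher and 2 lower (beside 20.9% and 21.3%), and at day 6, 4 were higher and 1 lower (beside 21% and 29.5%). The lower calls of days 4 and 6 are thus no more than the share of all genes. Fzd1 and Fzd2 were higher on all 3 days. Fzd1 stood at −6.44 and −5.45 in shNT versus −3.78 and −3.59 in shIno80 at day 2, at −4.54 and −4.49 versus −1.64 and −1.72 at day 4, and at −3.88 and −4.40 versus −1.14 and −1.15 at day 6. The groups did not overlap, and the differences were 2.26, 2.84 and 3.001 (each ± 0.29), or 4.78-, 7.18- and 8.01-fold (limma adjusted p = 0.00323, 0.000135 and 7.37e-05), with 1 shNT array well above background at day 2. In the authors' value table the Fzd1 differences were 0.91, 1.96 and 2.46 and passed, and with normexp they were −0.52, 1.13 and 2.07 and did not pass, so the direction at day 2 turned. Fzd2 stood at −1.18 and −1.402 versus 0.35 and 0.07 at day 2, at 0.25 and 0.08 versus 1.12 and 0.92 at day 4, and at 0.77 and 0.36 versus 2.08 and 2.10 at day 6. Its differences were 1.497, 0.86 and 1.52 (each ± 0.17; limma adjusted p = 0.00193, 0.00398 and 0.000153). A second Fzd2 probe was well above background on no array and was not tested. The controls also had higher levels of both genes at day 6. From day 2 to day 6 their mean moved by 1.80 for Fzd1 and by 1.85 for Fzd2.

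Fzd6, a receptor of planar polarity in skin, rose later. It stood at −2.87 and −2.96 in shNT versus −2.82 and −2.73 in shIno80 at day 2, at −2.70 and −2.96 versus −1.48 and −1.34 at day 4, and at −1.995 and −1.94 versus −0.93 and −0.51 at day 6. The later differences were 1.42 and 1.25 (each ± 0.15; limma adjusted p = 0.000174 and 0.000263). Fzd9 was higher at day 4 alone, at 0.54 and 0.43 in shIno80 against −0.49 and −0.54 in shNT (1.00 ± 0.15, limma adjusted p = 0.000965). Its groups overlapped at day 6, with −0.14 and −0.51 versus 0.12 and −0.16, though without shIno80 replicate 1 of that day Fzd9 was called lower by 0.50. Fzd10 was higher by 0.68 and 0.77 at days 4 and 6, and Fzd3 by 0.83 at day 4, each with a second probe that passed on the same days.

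Fzd5, a receptor of yolk sac and placental vessel development, was called lower at days 2 and 4. It stood at −0.40 and −0.63 in shNT versus −1.76 and −1.97 in shIno80 at day 2, at −0.81 and −0.76 versus −3.24 and −3.09 at day 4, and at −1.44 and −1.12 versus −1.32 and −2.64 at day 6. The day 4 difference was −2.38 ± 0.35, or 5.21-fold (limma adjusted p = 0.000919). The day 2 call (−1.35 ± 0.35, limma adjusted p = 0.0441) was lost when any 1 array other than the shIno80 arrays of day 6 was left out, with values between −1.46 and −1.24 and adjusted p up to 0.165. At day 6 the shIno80 arrays differed from each other and the groups overlapped, and without shIno80 replicate 1 the difference was −1.36 and passed. Fzd8 was lower by 0.82 at day 4 and by 0.58 at day 6 (each ± 0.17; limma adjusted p = 0.00522 and 0.0207), and the second of these calls was lost without shNT replicate 1 (−0.45) or shIno80 replicate 1 (−0.44) of that day. Fzd4 passed on no day.

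The probes of Fzd7, a main Wnt receptor of pluripotent cells, disagreed. Its reported probe stood at 0.82 and 0.81 in shNT versus 0.81 and 0.75 in shIno80 at day 2, and its differences of −0.03, 0.02 and −0.26 (each ± 0.11) passed on no day. Its much dimmer second probe stood at −4.60 and −5.09 versus −4.15 and −3.74 at day 2, at −3.94 and −3.93 versus −2.89 and −3.12 at day 4, and at −3.40 and −3.65 versus −2.50 and −2.64 at day 6. That probe passed on all 3 days when each probe was tested, with differences of 0.90, 0.92 and 0.95 (each ± 0.20; limma adjusted p = 0.0254, 0.00616 and 0.00439). The second probe and the Fzd2 probe are printed because they were the most alike of all 1071 pairs of kept probes of different members, at 42 identical bases of 50 aligned, with a longest shared run of 14 bases. The Fzd2 probe lies at chr11:102715340-102715399 and the Fzd7 probe at chr1:59735681-59735740 (build mm7, plus strand), and capitals mark the identical bases.
Fzd2: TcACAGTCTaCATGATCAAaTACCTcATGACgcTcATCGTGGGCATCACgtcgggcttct
Fzd7: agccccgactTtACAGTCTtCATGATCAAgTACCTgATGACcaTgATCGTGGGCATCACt
Fzd2 was higher on the same 3 days. Whether Fzd2 RNA contributes to the signal of the second Fzd7 probe, or Fzd7 RNA to that of the Fzd2 probe, was not tested.

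**Figure D4:**
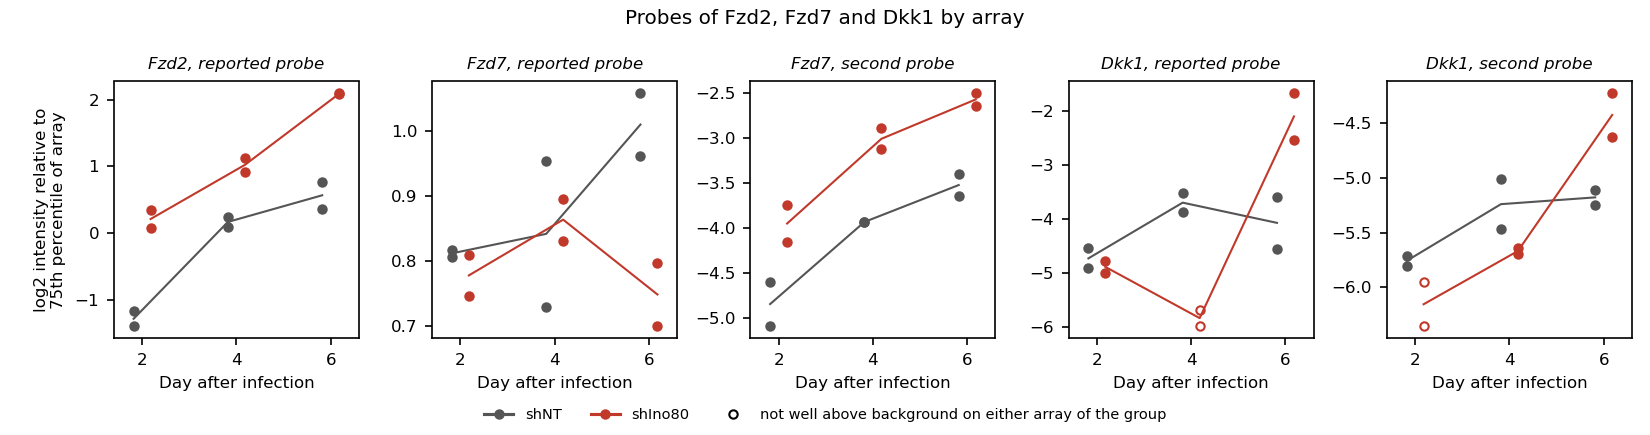
Log2 levels on each array for the Fzd2 probe and for both probes of Fzd7 and of Dkk1 against the day after infection, in grey for shNT and red for shIno80, with lines through the group means and open circles where neither array of a group was well above background. The second Fzd7 probe is higher in shIno80 by 0.90 to 0.95 on each day and its brighter reported probe is not, and the reported Dkk1 probe is lower at day 4 than at day 2 in shIno80 (by −0.95 on average) and higher in shNT (by 1.03).

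Of 6 tested secreted antagonists, 1 passed at day 2 and 2 at day 4, all lower (beside 6.21% and 21.3% of all genes called lower), and at day 6 there were 1 higher and 3 lower (beside 21% and 29.5%), with median differences of −0.37, −0.67 and −1.06 beside 0.02, −0.05 and −0.14 over all genes. Sfrp1, an antagonist that binds Wnts, stood at 2.07 and 1.41 in shNT versus 1.76 and 1.17 in shIno80 at day 2, at 1.404 and 1.69 versus −0.91 and −0.99 at day 4, and at 1.84 and 2.03 versus −0.99 and −0.75 at day 6. The groups overlapped at day 2 and stood apart later, with differences of −2.50 and −2.81 (each ± 0.25), or 5.67- and 6.99-fold lower (limma adjusted p = 0.000129 and 5.16e-05). Its second probe gave −2.66 and −3.20. Sfrp4 passed at day 6 alone, where it stood at −0.16 and −0.04 in shNT versus −1.74 and −1.97 in shIno80 (−1.76 ± 0.23, limma adjusted p = 0.000343). Sfrp5 stood at −4.13 and −4.32 versus −5.98 and −5.98 at day 6, where it was not well above background in shIno80 and was at least 3.17-fold lower (limma adjusted p = 0.00426), and its value-table difference was −0.56 and passed. With normexp Sfrp5 was at −0.21 on that day and did not pass. Without shNT replicate 2 of day 2 it also passed at day 2 (−1.54), and without either shNT array of that day at day 4 (−1.02). Sfrp2 passed on no day, with differences between −0.36 and 0.44.

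Dkk1 was called in opposite directions at days 4 and 6. It stood at −4.91 and −4.54 in shNT versus −5.00 and −4.76 in shIno80 at day 2, at −3.87 and −3.52 versus −5.98 and −5.68 at day 4, and at −4.54 and −3.59 versus −2.53 and −1.67 at day 6. The groups overlapped at day 2. The later differences were −2.13 and 1.97 (each ± 0.36), or 4.39-fold lower and 3.91-fold higher (limma adjusted p = 0.00183 and 0.00226). The reported probe was not well above background on the shIno80 arrays of day 4. Its own values there lay above the floor, so the fold of that day is the point value and no bound. From day 2 to day 4 the mean level moved by 1.03 in shNT and by −0.95 in shIno80. The change of the difference from day 4 to day 6 was itself called, at 4.10 ± 0.51 (limma adjusted p = 0.0073). The second probe, dimmer and well above background on all arrays of days 4 and 6, gave −0.43 and 0.75 and passed at day 6 alone. On both days the difference passed in the value table, at −0.83 and 1.52 for the reported probe, and for the mean of both probes, at −1.28 and 1.36. With normexp the reported probe gave −0.82 and 1.32 and passed on neither day. Dkk3, a divergent member of the family, was lower by 0.97 ± 0.18 at day 2 (limma adjusted p = 0.0131) and passed on no later day. That call was lost without shNT replicate 1 (−0.79) or either shIno80 replicate (−0.996 and −0.95) of day 2.

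**Figure D5:**
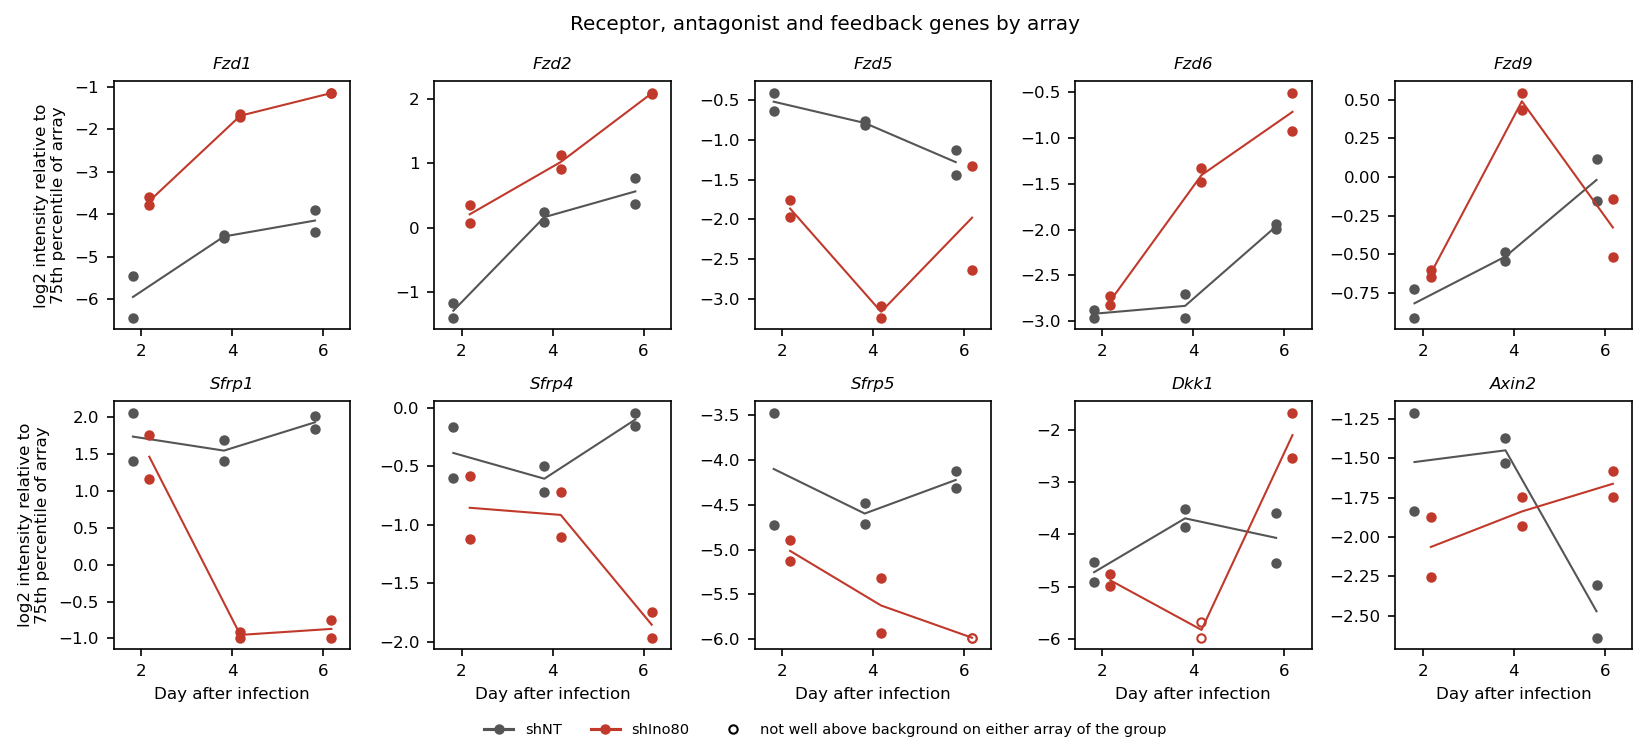
Log2 levels of 5 Frizzled receptor genes, 4 antagonist genes and Axin2 on each array against the day after infection, in grey for shNT and red for shIno80, with lines through the group means and open circles where neither array of a group was well above background. Fzd1 and Fzd2 lie higher in shIno80 on every day, Sfrp1 drops to about −0.99 to −0.75 in shIno80 from day 4, and Dkk1 crosses from below shNT at day 4 to above it at day 6.

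Of Lrp5, Lrp6, Lef1 and Axin2, limma called 0 of 4 at day 2 (beside 12.5% of all genes), with 1 below an unadjusted p of 0.05. At day 4, 2 were higher and 1 lower (beside 20.9% and 21.3%), and at day 6, 2 were higher and 1 lower (beside 21% and 29.5%). All of these differences were under 1 on the log2 scale. Axin2 stood at −1.84 and −1.21 in shNT versus −2.26 and −1.87 in shIno80 at day 2, at −1.53 and −1.37 versus −1.74 and −1.93 at day 4, and at −2.30 and −2.64 versus −1.58 and −1.75 at day 6. Its differences at days 2 and 4 were −0.54 and −0.39 (each ± 0.23) and did not pass (limma adjusted p = 0.177 and 0.212). Neither change of the difference between days passed (limma adjusted p = 0.814 and 0.0898). From day 2 to day 6 the mean control level moved by −0.95 and that of shIno80 by 0.40. Axin2 passed only at day 6, where it was higher by 0.81 ± 0.23 (limma adjusted p = 0.0174). The call was lost without shNT replicate 2 (0.64) or shIno80 replicate 1 (0.73) of day 6. Lef1 was lower by 0.62 and 0.51 (each ± 0.18) at days 4 and 6 (limma adjusted p = 0.0245 and 0.0454). Its second probe gave −0.75 and −0.30 on those days and passed at day 4 alone. The day 4 call of Lef1 was lost without shNT replicate 1 (−0.42) or shIno80 replicate 1 (−0.50) of that day. The day 6 call was lost without either shNT array of day 2, either shIno80 array of day 4, shNT replicate 1 of day 6 or either shIno80 array of day 6 (−0.55 to −0.34). Lrp5 was higher by 0.65 and 0.49 (each ± 0.17; limma adjusted p = 0.0133 and 0.0378), and lost its calls without shNT replicate 2 (0.52) or shIno80 replicate 1 (0.46) of day 4 and without any 1 of the 4 arrays of day 6 (0.38 to 0.59). Lrp6 was higher by 0.85 ± 0.28 at day 4 (limma adjusted p = 0.0421), a call lost without any 1 array other than the shNT arrays of day 2 (0.79 to 0.90), and without either of those it also passed at day 6 (0.38).

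Promoters of 28 members were in the RefSeq promoter table (GRCm38.p6, 250 bases before to 50 after a start), 34 in all. The TCF/LEF core letters CTTTGAA or CTTTGAT, on either strand, were in 3 of these 34 (8.82%) and in 2842 of all 32851 promoters (8.65%). The 3 belong to Dkk1, to 1 of the 3 starts of Wnt5b and to 1 of the 2 starts of Wnt11. They are printed because Dkk1, itself an antagonist and known target of beta-catenin signalling, changed direction between days, with the core in capitals. The Dkk1 stretch is the 250 bases before the start at chr19:30549497-30549746 (minus strand), with the core 117 bases before the start. The Wnt5b stretch lies at chr6:119449439-119449468 (minus strand) and the Wnt11 stretch at chr7:98835050-98835079 (plus strand), with the core reversed in the latter.
Dkk1: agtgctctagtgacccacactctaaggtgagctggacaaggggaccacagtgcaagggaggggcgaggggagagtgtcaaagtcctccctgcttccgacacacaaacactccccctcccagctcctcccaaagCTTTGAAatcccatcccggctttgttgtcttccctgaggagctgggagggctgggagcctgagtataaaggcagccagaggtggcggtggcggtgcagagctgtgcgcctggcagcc
Wnt5b: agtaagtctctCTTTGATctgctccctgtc
Wnt11: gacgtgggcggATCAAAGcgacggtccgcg
A match of letters is no evidence of binding, and their absence from the other windows says nothing of the factors.

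How the difference changed with time was tested as the difference at 1 day minus that at an earlier day. From day 2 to day 4, 15 of the 37 members passed (12 up and 3 down), beside 15.3% of all genes, and 0 with normexp (7 below an unadjusted p of 0.05). These 15 were Wnt3, Wnt4, Wnt6, Wnt7a, Wnt7b, Wnt9a, Wnt10a and Wnt10b, whose differences moved up by 1.44 (Wnt7b) to 3.01 (Wnt7a), Wnt5b, Fzd6, Fzd9 and Dkk3 that moved up by 0.75 to 1.37, and Wnt5a, Sfrp1 and Dkk1 that moved by −2.61, −2.23 and −1.98. Wnt7a, Wnt10b, Wnt5a and Dkk1 had no array well above background in 1 or more of the groups compared, so the sizes of their changes are uncertain. Wnt7a and Wnt10b met the detection rule only in shIno80 groups of days 4 and 6, so their upward changes are no independent support for a rise. From day 4 to day 6, 5 members passed (4 up and 1 down), beside 3.79% of all genes: Wnt6 by 3.91 ± 0.40, Wnt10a by 3.101 ± 0.32, Wnt3 by 1.32 ± 0.27 and Dkk1 by 4.10 ± 0.51 upwards, and Fzd9 by −1.31 ± 0.21 (limma adjusted p = 0.0032, 0.0032, 0.0388, 0.0073 and 0.0183). That count was 9 with quantile normalization, 14 with the value table and 0 with normexp (4 below an unadjusted p of 0.05), and ran from 3 to 8 with 1 array left out. For Fzd1 and Fzd2, which were higher from day 2 on, neither change passed (0.59 and 0.16 for Fzd1, −0.64 and 0.67 for Fzd2).

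Other genes of the pathway were taken from 8 lists with 67 members, of which 62 were tested. Over all genes, 6.29% were called higher and 6.21% lower at day 2. These shares were 20.9% and 21.3% at day 4, and 21% and 29.5% at day 6. Of the 3 genes of ligand processing, all passed on all 3 days, in both directions. Porcn, which attaches the lipid that Wnts need, fell by 1.06, 2.21 and 2.03 on the log2 scale. Its levels at day 6 were 0.15 and 0.37 in shNT versus −2.05 and −1.503 in shIno80. Notum, which removes that lipid, fell by 0.85, 3.11 and 2.64. Wls, which carries Wnts to the cell surface, rose by 0.72, 1.83 and 3.42, with levels of −1.90 and −2.25 in shNT versus 1.45 and 1.24 in shIno80 at day 6 (limma adjusted p = 6.82e-05, 1.63e-05 and 2.13e-06 at day 6 for Porcn, Notum and Wls).

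Among 8 tested genes of R-spondins and their receptors, 1 passed at day 2, higher, and 3 were higher and 2 lower at both later days. The shares of all genes called higher and lower were 6.29% and 6.21% at day 2, 20.9% and 21.3% at day 4, and 21% and 29.5% at day 6. Rspo2 was at least 1.85-fold and Rnf43, a ligase that removes Frizzled receptors, 3.20-fold higher at day 6, and Lgr6 was at least 2.17-fold lower (limma adjusted p = 0.000504, 0.000219 and 0.00166). Rspo2 met the detection rule only in shIno80 at day 6. Of 8 other receptors and co-receptors, limma called 0 at day 2 (1 below an unadjusted p of 0.05), 5 higher and 1 lower at day 4, and 5 at day 6, all higher. The proteoglycan gene Gpc4 (2.33) and the Dkk receptors Kremen1 (1.21) and Kremen2 (1.15) rose by the most at day 6. Of 4 other antagonists, 1 passed on each day: Dkkl1 fell by 0.63 at day 2, and Tpbg rose by 1.37 and 1.49 at days 4 and 6.

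Lists of genes that act inside the cell are given next, to be read beside the same shares of all genes. Those were 6.29% higher and 6.21% lower at day 2, 20.9% and 21.3% at day 4, and 21% and 29.5% at day 6. In the first 2 lists, the numbers called lower at days 4 and 6 are near these shares. Of 11 genes of Dishevelled and the breakdown complex, limma called 0 at day 2 (1 below an unadjusted p of 0.05), 1 higher and 2 lower at day 4, and 4 at day 6, all lower, with Dvl2 lower by 1.08 and 1.11. Of 13 genes of beta-catenin and nuclear factors, 1 was higher at day 2, 1 higher and 3 lower at day 4, and 2 higher and 4 lower at day 6. The co-repressor gene Tle3 fell by 1.80 and 1.93, and Tcf7l2 rose by 1.18 and 1.24. Of 7 feedback and target genes, 2 were higher and 1 lower at day 2, 2 higher and 4 lower at day 4, and 1 higher and 1 lower at day 6. The feedback inhibitor genes Nkd1 and Nkd2 rose by 1.29 and 1.01 at day 2 and by 1.89 and 1.87 at day 4, while Ccnd1 fell by 1.12 at day 4. Of 8 planar polarity genes, 2 were higher and 1 lower at day 2 and 3 higher and 2 lower at both later days, led by Prickle1 (1.39) and Daam1 (1.06) at day 6. These genes passed with limma adjusted p of at most 0.05, as did all those said to have risen or fallen.

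How many of these differences passed varied with how the intensities were treated. Of the 36 calls on the members with a difference of at least 1 on the log2 scale, 36 passed with median scaling, quantile normalization and the value table, but 15 with a normexp correction of the mean intensities, which kept the direction of 33. Day 2 rests on the spread shared with the other days: from its 4 arrays alone limma called 0 members, with 5 below an unadjusted p of 0.05.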

How the data were processed

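RNA of J1 cells was hybridised to one-colour Agilent arrays. Per the file headers, Agilent Feature Extraction 9.5.3.1 gave the deposited intensity values, of which the processed signal is background-subtracted and the mean signal is not. The labels name the dye Cy5, whereas the deposited files hold green columns only. The deposited value table holds log2 values per spot, scaled between arrays in a way not given in the sources used here. Its columns matched the scanner mean signals to within 1e-06 on the log2 scale, which showed the 6 arrays placed under other samples, and its placement was used.

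Spots marked as outliers were dropped (125 of 41174 non-control probes lost all values on an array). The log2 processed intensity minus the 75th percentile of the array was averaged over the spots of a probe. A probe was kept if marked well above background on each array of 1 group or more (28657 probes), and the brightest kept probe stood for a gene (19184 genes). Probes were named through RefSeq accessions, then symbols. limma 3.58.1 in R 4.3.3 fitted 1 mean per group over the 12 arrays (6 residual degrees of freedom), with Benjamini-Hochberg adjustment over all genes tested and a threshold of 0.05, and was tested on simulated data. Per-array values are given for members that passed with a log2 difference of at least 1 on a day, and genes of the other lists by the same rule, at most 4 a list, with others named by their values. Members and lists were chosen with earlier results of these data known. Alternatives were median and quantile scaling, normexp, the value table, other filters on dim probes, the mean of probes, each probe tested, each day alone, the scanner files' placement, the replicate number as a block, and each array left out. Replicate differences of the hairpins correlated at 0.296, 0.117 and 0.0832 at days 2, 4 and 6, so the numbers were not taken to pair samples. With 2 arrays per group, their number limits the precision.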

Additional observations from a re-analysis of the deposited data

Results flagged for a closer look

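The 19 members with a called difference of at least 1 on the log2 scale were picked from these same data, which favours changes between days. Of all 37 tested members, 15 changed from day 2 to day 4 and 5 from day 4 to day 6, beside 15.3% and 3.79% of all genes. For 13 of the 19, the difference between shIno80 and shNT changed between days by limma's test (adjusted p below the threshold over all genes), relative to the arrays of the same slide. From day 2 to day 4 it moved by 2.55 for Wnt10a (limma adjusted p = 0.0019), by 1.60 for Wnt6 (0.0323), by 3.01 for Wnt7a (0.00217), by 1.91 for Wnt9a (0.00141), by 2.34 for Wnt4 (0.0045), by 2.59 for Wnt10b (0.00542), by 2.17 for Wnt3 (0.00192) and by 1.44 for Wnt7b (0.0044). These 8 ligands moved towards higher levels in shIno80. Over the same days it moved by 1.28 for Fzd6 (limma adjusted p = 0.00728) and by 0.81 for Fzd9 (0.0384). It moved the other way by −2.61 for Wnt5a (limma adjusted p = 0.000828), by −2.23 for Sfrp1 (0.00594) and by −1.98 for Dkk1 (0.0364). For Wnt7a, Wnt10b, Wnt5a and Dkk1, 1 or more of the groups compared had no array well above background, so the sizes of these changes are uncertain. Wnt7a and Wnt10b met the detection rule only in shIno80 groups of days 4 and 6, so their upward changes are no independent support for a rise.

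From day 4 to day 6 the difference moved by 3.1 for Wnt10a, by 3.91 for Wnt6, by 1.32 for Wnt3 and by 4.10 for Dkk1. For Fzd9 it moved by −1.31. The Fzd9 value is the 1 change that turned an earlier rise of the difference back, and the Dkk1 value the 1 that turned an earlier fall.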

How the results depend on the processing

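With normexp, limma called 0, 6 and 9 members at days 2, 4 and 6 (3 at day 2 below an unadjusted p of 0.05), 0 changes from day 2 to day 4 (7 unadjusted) and 0 from day 4 to day 6 (4 unadjusted), and 0, 6 and 10 other pathway genes. It turned Fzd1 (−0.52) and Wnt9a (−0.23) at day 2 and Wnt10b (−0.17) at day 4. Day 2 alone gave 0 calls. Changes from day 4 to day 6 numbered 9 with quantile normalization and 14 with the value table. The causes were not tested. The mean of its probes turned Fzd7 at day 6 (0.34, limma adjusted p = 0.0477). The replicate block gave 4, 25 and 22 members and 16 and 6 changes, and lost the calls of Fzd5 at day 2 and Lef1 at day 6.

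The scanner files' placement mixes both hairpins in each group and gave 0 calls and 0 changes throughout. It turned at day 2 Fzd2 (−0.26) and Ino80 (0.12). At day 4 it turned Dkk1 (0.32), Fzd1 (−0.015), Fzd2 (−0.19), Fzd5 (0.10), Fzd6 (−0.060), Fzd9 (−0.082), Lrp5 (−0.32), Lrp6 (−0.039), Sfrp1 (0.11), Wnt2 (−0.62), Wnt7a (−0.0026) and Ino80 (0.16). At day 6 it turned Axin2 (−0.25), Fzd1 (−0.27), Fzd2 (−0.19), Fzd8 (0.0060), Fzd10 (−0.086), Lrp5 (−0.19), Sfrp1 (0.21), Wnt3 (−0.21), Wnt4 (−0.29), Wnt5a (0.30), Wnt5b (−0.011), Wnt6 (−0.17), Wnt7a (−0.019), Wnt9a (−0.29), Wnt10a (−0.17) and Ino80 (0.19).

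Leaving out each array in turn gave 3 to 5, 21 to 27 and 19 to 24 members at days 2, 4 and 6, 11 to 15 changes from day 2 to day 4 and 3 to 8 from day 4 to day 6. The 3 at day 2 came without either shIno80 array of that day. The 3 changes came without any 1 array of day 4 or shNT replicate 1 of day 6, and the 8 without either shNT array of day 2. Of the 36 member calls of at least 1 on the log2 scale, the only one lost to an omission was that of Fzd5 at day 2. The median of all genes at day 4 was −0.05 as reported and −0.19 with median scaling, and at day 6 −0.14 and 0.06 with the value table. Where a called gene was above background in 1 hairpin and on no array of the other, its fold change is taken against a floor. It is a bound within this processing only. The log2 differences of such genes and their changes between days are point values taken near background. For Wnt7a at day 6 and Dkk1 at day 4 the fold against the floor equals the point value.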
